A study of Rangifer tarandus with 4 samples.

Results

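Tail-to-tail genes are neighbours on opposite strands whose 3′ ends run into each other. In the cattle gene annotation deposited for this series, 357 such pairs had at least 1 exon base in common. They were pairs of protein-coding genes in which the plus-strand gene started left of the minus-strand gene and ended between its left and right end. The pairs held 714 of 21861 protein-coding genes, or 3.27% (95% exact interval 3.03% to 3.51%), and no gene was in more than 1 pair. The pairs were chosen by position alone and by no measured value.

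The series profiled blood mononuclear cells of reindeer (Rangifer tarandus), taken 3 days after a wound per its title, as single-cell 3′ RNA libraries. Blood came from the saphenous vein (back, 2 libraries) or from the distal antler velvet (antler, 2 libraries), and about 12000 cells were loaded per library. The sources used here give no genotype, strain or age of the animals. Counts of cells by gene were not analysed here, and neither expression nor depth nor a comparison of antler with back is reported. All values below are properties of the gene models of cattle (Bos taurus, assembly ARS-UCD1.2), with coordinates counted from 1, and no reindeer coordinates are given.

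In a convergent pair the RNA polymerases travel towards each other, and each transcript ends in the direction of its neighbour. Where the 3′ ends overlap, the mature RNAs carry complementary stretches, a common form of natural antisense transcripts. The 3′ untranslated region (UTR), between the stop codon and the poly(A) tail, holds binding sites for microRNAs and proteins that set the stability and translation of an mRNA. In libraries read at the 3′ end, most reads of a gene fall near this region. The sources used here do not say whether the authors' counting used strand. Without strand, reads from bases shared by both genes of a pair cannot be told apart.

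Tail-to-tail was the most frequent arrangement among opposite-strand genes sharing exon bases. Of 730 such pairs, 357 (48.9%) were tail to tail, 240 were head to head (overlapping at their 5′ ends), and in 132 the span of 1 gene lay within the other. Most tail-to-tail overlaps were short beside the genes. The median pair shared 186 exon bases (quartiles 60 and 400 bases). The shared bases made up a median of 7.06% of a gene's joined exons, that is, its exons over all transcripts merged. At the upper end, 18 pairs shared at least 1000 bases, and at the lower end 68 shared under 50 bases. In 278 pairs (77.9%) the shared bases formed 1 unbroken stretch, and SLC4A2, an anion exchanger, shared the largest number of separate stretches, 9, with FASTK, a mitochondrial RNA-binding protein.

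**Figure D1:**
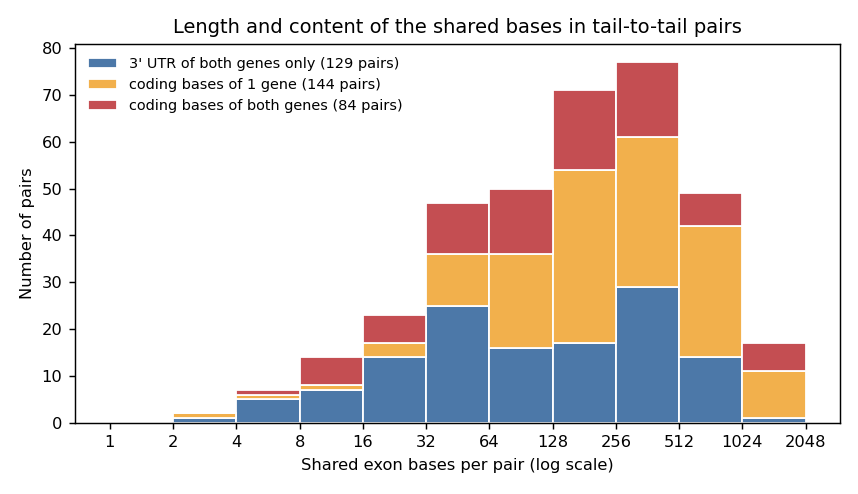
Number of pairs (vertical axis) by shared exon bases per pair (horizontal axis, log scale), stacked by whether the shared bases were 3′ UTR of both genes only (129 pairs), included coding bases of 1 gene (144 pairs) or of both genes (84 pairs). All 3 kinds occur from short to long overlaps.

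By base count, 53.8% of the overlap was 3′ UTR on 3′ UTR, yet most pairs touched bases annotated as coding. Of 106465 shared bases, 57307 (53.8%) were 3′ UTR in both genes and 41820 (39.3%) were coding in 1 gene and 3′ UTR in the other. The first share fell to 49.6% without the 63 pairs that hold a 3′ UTR of exactly 1000 bases. A further 6788 bases (6.38%) were coding in both. A base counted as coding if it was coding, or part of the stop codon, in any transcript of the gene. The remaining 550 bases were 5′ UTR of a gene and lay in 3 pairs. By pair, 129 (36.1%, interval 31.1% to 41.4%) shared 3′ UTR bases alone, with a median of 115 shared bases. Another 144 pairs (40.3%) reached the coding bases of 1 gene and had a median of 248.5 shared bases. Coding bases of both genes were touched in 84 pairs (23.5%), with a median of 151 shared bases. Coding bases of at least 1 gene were thus shared in 228 pairs (63.9%, interval 58.6% to 68.9%). This share depends on which 3′ UTRs are annotated. In 77 pairs only 1 gene had an annotated 3′ UTR, and in 8 pairs neither had. A gene without one could share only coding or 5′ UTR bases. Whether its 3′ UTR is missing from the annotation was not tested.

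Among the 10 pairs of named genes that shared most bases, the overlap covered the whole 3′ UTR of at least 1 partner in 7. DCAF8, a substrate receptor of a cullin ubiquitin ligase, and PEA15, a death-effector protein that binds ERK, shared 2038 bases on chromosome 3. Of these, 1989 bases were the entire 3′ UTR of PEA15 and 49 were PEA15 coding bases, so that 80.3% of the exon bases of PEA15 lay under the 3′ UTR of DCAF8. TESK2, a testis-associated kinase, shared 1654 bases with TOE1, a deadenylase that trims small nuclear RNAs. There the 3′ UTR of TOE1 ran over 725 coding bases of TESK2 and over all 929 bases of its 3′ UTR. EPHX1, microsomal epoxide hydrolase, and TMEM63A, a mechanosensitive ion channel, shared 1613 bases. These included every annotated 3′ UTR base of TMEM63A (1370 bases joined over its transcripts). The 4 TMEM63A transcripts shared from 228 to 1007 bases, so the 1613 bases lay on no single TMEM63A transcript. The kinase gene PKN3 and the palmitoyltransferase gene ZDHHC12 shared 1586 bases in 5 stretches, with 707 coding bases of ZDHHC12, or 87.6% of its coding sequence.

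Next in length, EXOC7, a subunit of the exocyst, ended 1544 shared bases into ZACN, a zinc-activated ion channel, and its 3′ UTR covered 689 coding bases (56.0%) and the whole 3′ UTR (855 bases) of ZACN. BMP2K, a kinase, and PAQR3, a Golgi membrane protein, shared 1434 bases, of which 1392 were coding in BMP2K and 3′ UTR in PAQR3. P2RX6, an ATP-gated channel, shared 1397 bases with SLC7A4, an amino acid transporter relative, and ZFP57, a zinc finger protein that guards imprinted genes, shared 1352 bases with MOG, a myelin protein. POMT1, a protein O-mannosyltransferase, shared 1248 bases with UCK1, a uridine-cytidine kinase, whose whole 3′ UTR of 1017 bases was covered. ZDHHC8, another palmitoyltransferase, and CCDC188 differed from these: all of their 1382 shared bases were 3′ UTR in both genes.

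**Figure D2:**
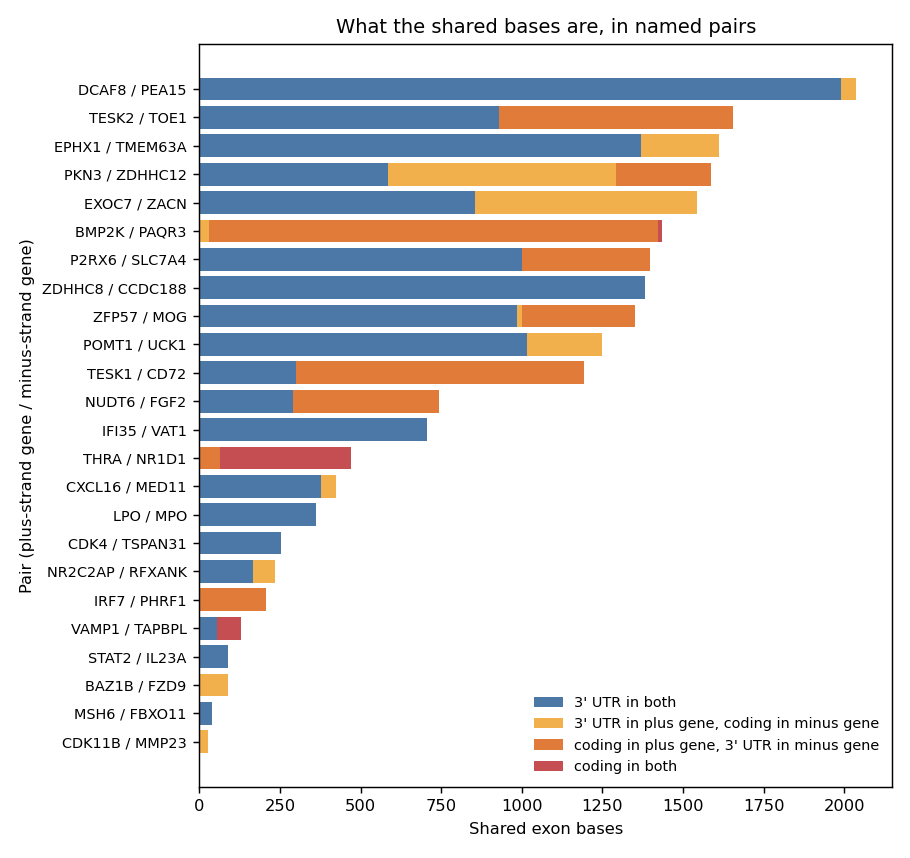
Shared exon bases (horizontal axis) of the 10 longest named pairs, of pairs with a gene of the immune, wound or growth factor lists, and of pairs known from human or mouse, split by what the bases are in the plus-strand and the minus-strand gene. IRF7 / PHRF1 has no base that is 3′ UTR in both genes, and THRA / NR1D1 has 408 bases that are coding in both.

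Bases that were coding on both strands were found in 74 pairs (20.7%), with 4 to 415 such bases per pair. In 59 of the 74 pairs both genes carried a symbol. The highest value, 415 bases, belonged to FEN1, the flap endonuclease of DNA replication and repair, and the gene without a symbol ENSBTAG00000053898. Among named pairs THRA and NR1D1 came first with 408 bases. THRA encodes thyroid hormone receptor alpha (chromosome 19, 40366052 to 40391256, plus strand) and NR1D1 the clock repressor REV-ERB alpha (40389125 to 40397513, minus strand). THRA had 2 transcripts, of which the longer-reaching, with 11 exons and no 3′ UTR, shared 471 bases with NR1D1, all of them coding in THRA. Its other transcript had a 3′ UTR of 442 bases and shared 263 bases.

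Of the other named pairs, SLC34A1, the renal phosphate transporter, and PFN3, a testis profilin, shared 393 bases that were all coding in both genes, or 94.9% of the coding sequence of PFN3. Only 1 of the 2 SLC34A1 transcripts reached PFN3. INSL5, an insulin-like gut hormone, and TCTEX1D1 had 233 double coding bases, MFSD8 and the centriole kinase PLK4 had 211, and PHF1, a Polycomb accessory protein, and CUTA had 182. SEPT8 with CCNI2 (166 bases), SFI1 with PRR14L (149 bases), PKD1L3 with IST1 (127 bases) and SLC51A with PCYT1A (126 bases) were also among the 10 highest. The pair ND5 and ND6, subunits of complex I, was the only mitochondrial pair and shared 17 bases, coding in both.

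Seen gene by gene, 312 of 714 genes (43.7%) had a coding base under their neighbour's exons, with a median of 6.84% of the coding sequence. In 23 genes it was at least 50% and in 5 at least 90%. COX6A2, a heart and muscle isoform of a cytochrome c oxidase subunit, had all of its 294 coding bases under the 3′ UTR of ITGAD, a leukocyte integrin alpha chain. FAM166A had 94.2% of its exon bases under TUBB4B, a beta tubulin, in 6 stretches. An annotated stop codon was touched in 206 genes (28.9%), and both stop codons of the pair were touched in 18 pairs.

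Seen from the 3′ UTR, 66 of 621 genes that had one (10.6%) shared every base of it, and the median was 23.1% (quartiles 4.65% and 55.0%). Both 3′ UTRs were wholly shared in CDK10, a cyclin-dependent kinase, and SPATA2L, each with exactly 1000 bases, a round length described below. A 3′ UTR was annotated for 87.0% of the 714 genes, against 65.5% of all protein-coding genes. Among genes with a symbol the shares were 90.2% and 79.8%. The rule itself asks for exon bases beyond the neighbour's end, and nothing is read from this gap. In 8 pairs neither gene had a 3′ UTR, ABCC1 with ABCC6 among them.

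Among 128 matched blood cell markers 3 were in a pair (2.34%, interval 0.486% to 6.70%), beside 4.06% of all 16808 protein-coding genes with a symbol. They were CD72, MPO and IRF7. CD72, an inhibitory co-receptor of B cells (chromosome 8, 59799960 to 59808752, minus strand), shared 1192 bases with TESK1, a kinase. The 3′ UTR of CD72, 1733 bases long, ran over 893 coding bases of TESK1 (43.9%) and over its whole 3′ UTR of 299 bases. MPO, the myeloperoxidase of neutrophil granules (chromosome 19, 9247562 to 9259279, minus strand), shared 363 bases with LPO, the lactoperoxidase of milk and saliva, all 3′ UTR in both. Its 2 transcripts shared 266 and 97 bases, so the 363 bases lay on no single MPO transcript. IRF7, the transcription factor that drives type I interferon (chromosome 29, 50695300 to 50698405, plus strand), had no 3′ UTR. Its 207 shared bases, 168 and 140 on its 2 transcripts, were coding in IRF7 and 3′ UTR in PHRF1, a ubiquitin ligase.

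Of 175 cytokines and receptors 2 were members (1.14%, interval 0.139% to 4.07%), of 83 interferon and pattern receptor genes 3 (3.61%, interval 0.752% to 10.2%), and of 33 antigen presentation genes 2 (6.06%, interval 0.743% to 20.2%). Each interval, like that of the blood cell markers, holds the 4.06% of all genes with a symbol. STAT2, the transducer of type I interferon signals (chromosome 5, 56997911 to 57009477, plus strand), and IL23A, the p19 chain of interleukin 23 (57009388 to 57011422, minus strand), shared 90 bases. All 90 were 3′ UTR in both, or 11.1% of the 3′ UTR of STAT2 and 29.1% of that of IL23A. CXCL16, a membrane-bound chemokine, shared 425 bases with MED11, a Mediator subunit, and covered the whole 3′ UTR of MED11 (376 bases) and 49 coding bases. IFI35, an interferon-induced protein, and VAT1, a vesicle membrane protein, shared 707 bases of 3′ UTR, which was 70.7% of the 3′ UTR of IFI35. RFXANK, a subunit of the factor that switches on class II genes, shared 236 bases with NR2C2AP, and 71 of them were coding in RFXANK. TAPBPL, the tapasin-related editor of class I peptides, shared 129 bases with VAMP1, a vesicle SNARE, of which 74 were coding in both.

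Wound and growth factor genes had 4 members of 146 matched (2.74%, interval 0.751% to 6.87%, which also holds 4.06%). FGF2, basic fibroblast growth factor (chromosome 17, 34801330 to 34860849, minus strand), shared 743 bases with NUDT6, the Nudix hydrolase gene known as its antisense partner. The 3′ UTR of FGF2, 6023 bases long, covered 453 coding bases of NUDT6 (56.9%) and its whole 3′ UTR of 290 bases. None of the last 300 bases of the FGF2 transcript were exon bases of NUDT6. FZD9, a WNT receptor, had 89 coding bases under the 3′ UTR of BAZ1B, a chromatin remodeller. MMP23, a matrix metalloproteinase, had 28 coding bases under the 3′ UTR of CDK11B. The fourth member, BMP2K, matched the symbol pattern but is a kinase and no ligand.

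**Figure D3:**
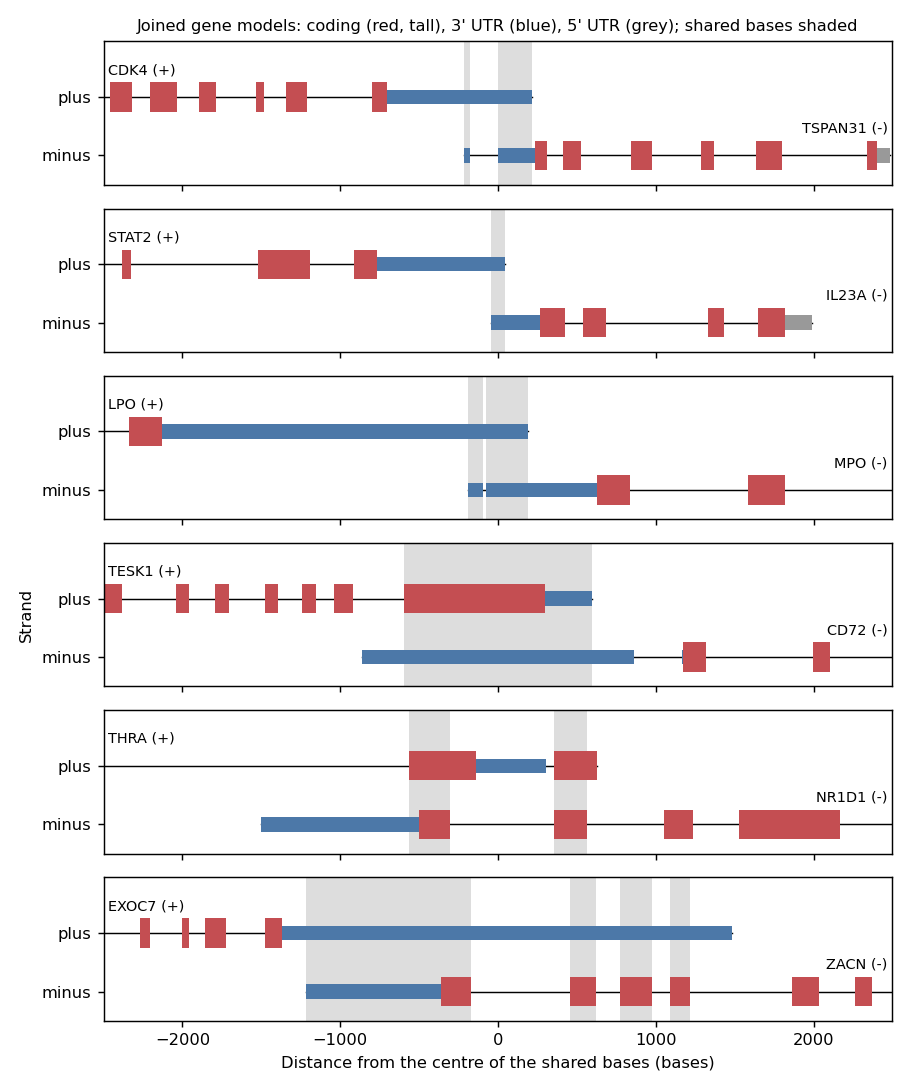
Joined gene models of 6 pairs, drawn by distance in bases from the centre of the shared bases, with the plus-strand gene above and the minus-strand gene below. Tall red boxes are coding, blue boxes 3′ UTR and grey boxes 5′ UTR; the shading marks shared exon bases, 90 in STAT2 / IL23A and 1192 in TESK1 / CD72.

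Several pairs are known as tail-to-tail neighbours in human or mouse. Of 8 such pairs looked up, 7 were matched by symbol and 3 were members: THRA with NR1D1, CDK4 with TSPAN31, and MSH6 with FBXO11. CDK4, the G1 cyclin-dependent kinase, shared 254 bases with the tetraspanin gene TSPAN31, all 3′ UTR, which was 92.7% of the 3′ UTR of TSPAN31. Only 1 of 2 CDK4 transcripts, with a 3′ UTR of 919 bases, reached TSPAN31. MSH6, a mismatch repair protein, shared 40 bases with FBXO11, an F-box protein, or 49.4% of the 81-base 3′ UTR of MSH6. Gaps separated the other matched pairs. ERCC1 and CD3EAP (a subunit of RNA polymerase I) were 122 bases apart, and SURF2 and SURF4 264 bases. The pair PKD1 and TSC2 was not matched.

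Across 20 functional lists, the share of members ranged from 0.817% to 11.8%, beside 4.06% of all protein-coding genes with a symbol. Aminoacyl-tRNA synthetases, which charge tRNAs, had 4 members of 34 (11.8%, interval 3.30% to 27.5%, which holds 4.06%). RNA polymerase and general transcription genes had 10 of 102 (9.80%, interval 4.80% to 17.3%), and DNA repair genes 11 of 116 (9.48%, interval 4.83% to 16.3%). Zinc finger transcription factors, many of which lie in gene clusters, had 3 of 367 (0.817%, interval 0.169% to 2.37%). The lists were chosen with earlier results of these data known, and no test of a list was made. Each interval takes every gene as an independent draw, reflects counting error alone and is not adjusted for the number of lists.

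The DNA repair members shared 6 to 432 bases, with a median of 127. RAD9A, a clamp of the DNA damage checkpoint, shared 385 bases with PPP1CA, a protein phosphatase catalytic subunit. RECQL, a DNA helicase, and PYROXD1 shared 375 bases, all 3′ UTR. FANCA, of the Fanconi anaemia core complex, covered 229 coding bases of ZNF276 with its 3′ UTR. The helicase ERCC2 of nucleotide excision repair shared 219 bases with KLC3, a kinesin light chain. DDB2, a sensor of ultraviolet damage, shared 127 bases with ACP2, FANCL 78 bases with VRK2, and the 8-oxoguanine glycosylase OGG1 60 bases with CAMK1. FANCI ended over 59 coding bases of POLG, the mitochondrial DNA polymerase. MUS81, a structure-specific nuclease, shared 6 bases with EFEMP2.

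Among transcription genes, TAF6, a TFIID subunit, had the longest overlap, 1104 bases with the adaptor subunit AP4M1, of which 954 were coding in TAF6. GTF3A, the 5S RNA transcription factor, shared 250 bases with MTIF3, a mitochondrial initiation factor. MED31 ran over 145 of the 372 coding bases of TXNDC17. POLR2C shared 45 bases with DOK4, TAF10 32 bases with ILK, MED16 19 bases with CFD (complement factor D), POLR2I 11 bases with OVOL3, and TAF5 5 bases with ATP5MD. In the tRNA synthetase list, the arginine enzyme RARS2 shared 117 bases with SLC35A1 and the tyrosine enzyme YARS2 73 bases with DNM1L, the dynamin of mitochondrial fission. MARS shared 59 bases with the stress factor DDIT3, all 3′ UTR, and GARS 51 bases with CRHR2, all coding in both.

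Oxidative phosphorylation genes, matched by symbol pattern, had 8 members of 108 (7.41%, interval 3.25% to 14.1%). The pattern did not take in the mitochondrial pair ND5 and ND6, which is not in this count. Besides COX6A2 they included COX8B, which shared 506 bases with the proteasome subunit PSMD13, and NDUFA2, whose 3′ UTR was 96.3% shared with TMCO6 over 209 bases. Cytosolic ribosomal proteins had 2 of 83 (2.41%): RPL35 shared 366 bases with WDR38 and RPS25 31 bases with CCDC84. Mitochondrial ribosomal proteins had 4 of 77 (5.195%), with MRPS7 highest at 720 bases shared with MIF4GD. Solute carriers had 20 of 352 (5.68%) and vesicle traffic genes 16 of 293 (5.46%). Cell cycle and mitosis genes (8 of 194), RNA processing genes (11 of 234), kinases and phosphatases (11 of 272) and TMEM genes (9 of 230) lay between 3.91% and 4.70%. These lists hold only symbols that fit a pattern. The kinase and phosphatase pattern left out member kinases described above, among them TESK1, TESK2, PKN3, BMP2K and CDK4. Its share is thus not that of all kinases. Apoptosis genes had 2 of 39 and proteasome and ubiquitin genes 11 of 372.

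**Figure D4:**
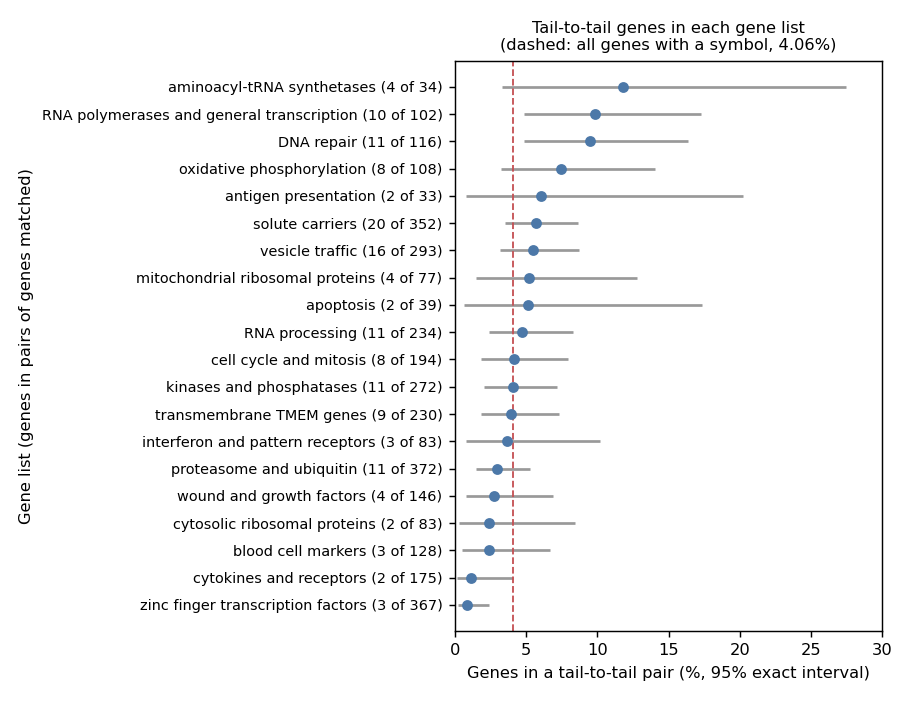
Percent of matched genes that are in a tail-to-tail pair (horizontal axis) for each of 20 lists, with 95% exact intervals as bars and all protein-coding genes with a symbol (4.06%) as a dashed line. The interval of zinc finger transcription factors ends below the line, and those of DNA repair and of RNA polymerase and general transcription genes begin above it. The intervals are not adjusted for the 20 lists.

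The 3′ terminal stretch, where reads of such libraries gather, often held shared bases. The rule itself places the 3′ end of each gene within its neighbour's span, so nothing is read from how often. Within the last 300 bases of the longest transcript, 521 of 714 genes (73.0%, interval 69.6% to 76.2%) had a shared base, and in 156 genes (21.8%) all 300 were shared. In 222 pairs (62.2%) this held for at least 1 base in both genes, and in 54 pairs (15.1%) the whole stretch was shared in both. IFI35 with VAT1, ZDHHC8 with CCDC188 and DCAF8 with PEA15 were among these. In the longest transcripts of THRA and NR1D1, by contrast, no base of either terminal stretch was shared. That THRA transcript ended 327 bases before the end of the gene. The shorter THRA transcript, which reached further, ended in coding bases partly shared with NR1D1 and was not used for this window.

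Many overlaps rested on some transcripts only. Of 361 genes with more than 1 transcript, 228 (63.2%) reached their partner with only some of them. With the transcript of longest coding sequence alone, 260 pairs were found. Of these, 257 were among the 357 pairs, and 100 of the 357 were not found. Among pairs described here, ZFP57 with MOG, DDX39A with ADGRE5 (the leukocyte adhesion receptor CD97), TAF6 with AP4M1, UBE2A with NKRF, KLC3 with ERCC2 and CDK11B with MMP23 shared no base in that reading. The same held for SFI1 with PRR14L, SEPT8 with CCNI2, DDIT3 with MARS, MUS81 with EFEMP2, and C15H11orf16 with AKIP1. The shared bases of BMP2K with PAQR3 went from 1434 to 42, those of EPHX1 with TMEM63A from 1613 to 1007, and those of PHF1 with CUTA from 1168 to 622. RPL35 with WDR38 went from 366 to 4 bases, and VAMP1 with TAPBPL from 129 to 74. The blood cell marker pairs fell too: TESK1 with CD72 from 1192 to 893, LPO with MPO from 363 to 266, and IRF7 with PHRF1 from 207 to 140. STAT2 with IL23A (90 bases), NUDT6 with FGF2 (743 bases) and THRA with NR1D1 (471 bases) were as in the reading over all transcripts.

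Some 3′ UTRs had a round length. Among genes with a 3′ UTR, the longest measured exactly 1000 bases in 65 of the 621 tail-to-tail genes (10.5%) and in 485 of 13698 other protein-coding genes (3.54%). Such a gene was in 63 pairs, whose median overlap was 414 bases, against 157 bases in the other 294 pairs. CXCL16, IFI35, ADGRE5, NR1D1 and PHRF1 had such a 3′ UTR. So did CDK10, SPATA2L, P2RX6 and ZFP57, whose 3′ UTRs were wholly shared. What set this length was not tested.

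At the edge of the rule, HIST1H2BN with ENSBTAG00000046096 and IDH3B, an isocitrate dehydrogenase subunit, with NOP56, a small nucleolar RNA protein, shared 2 bases each. MDK, the growth factor midkine, shared 4 bases with CHRM4. MPDU1 with SOX15, TAF5 with ATP5MD, and C15H11orf16 with AKIP1 shared 5 bases each. Just outside lay LYSMD1 and TNFAIP8L2, which shared only the last base of both genes, and so did not end past each other. Another 84 tail-to-tail pairs overlapped in span without a shared exon base. The smallest such overlap was 288 bases in PTPN13 with ENSBTAG00000050963, followed by 421 bases in ENSBTAG00000052743 with DEFB121, 516 in LIMS2 with MYO7B, 541 in ENSBTAG00000055155 with ENSBTAG00000051761 and 669 in ENSBTAG00000007093 with WASHC1. Convergent neighbours with a gap numbered 4561, and 75 of them were at most 100 bases apart. AIMP2 and EIF2AK1 abutted with a gap of 0 bases, and RFC4 and EIF4A2 were 1 base apart, ALG3 and VWA5B2 3 bases, SYNC and RBBP4 4 bases, and NT5C and ARMC7 6 bases.

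**Figure D5:**
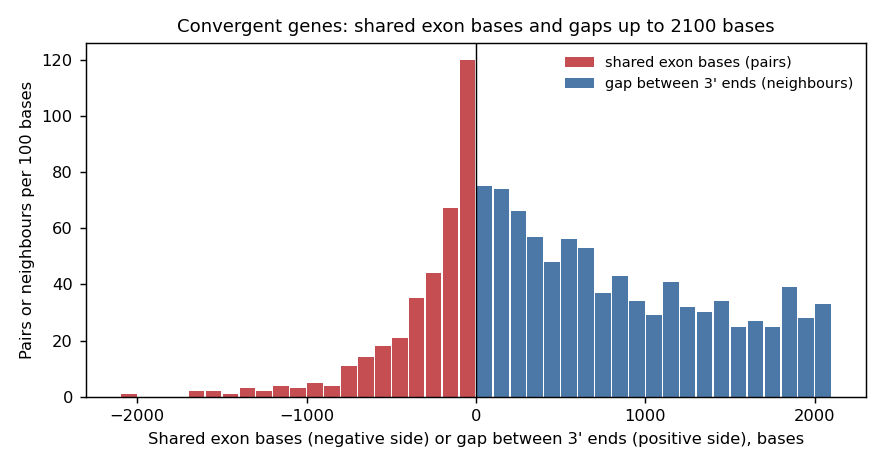
Pairs by shared exon bases (negative side) and convergent neighbours by the gap between their 3′ ends (positive side), in steps of 100 bases (horizontal axis) with their number on the vertical axis. The 120 pairs that share under 100 bases form the tallest bar, beside 75 neighbours with a gap under 100 bases.

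The pairs lay on all assembled chromosomes, and their share of the genes differed between them. Chromosome 25 had 27 pairs, which held 7.62% of its genes (interval 5.77% to 9.82%), at 16.8 genes per Mb of annotated extent. Chromosome 29 had 20 pairs (6.10% of its genes, 12.9 genes per Mb) and chromosome 19 had 35 (5.81%, 19.1 genes per Mb). At the low end were chromosome 24 with 1 pair (0.685% of its genes, 4.70 genes per Mb) and chromosome 27 with 1 pair (0.800%, 5.64 genes per Mb). Chromosome X had 5 pairs (1.18%, 6.08 genes per Mb), among them UBE2A, a ubiquitin-conjugating enzyme, with NKRF. Density did not order every chromosome: chromosome 15, at 11.7 genes per Mb, had 2.43% of its genes in pairs, and chromosome 22, at 8.97, had 4.78%. Unplaced scaffolds held none of the pairs among 218 genes.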

How the data were processed

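Values come from 1 annotation table deposited by the authors, with 1020224 feature lines. It holds the first and last base of each feature and no value of any sample, and its build is ARS-UCD1.2, per the file headers. The submitters' processing notes name STAR, Cell Ranger 3 and Seurat but assign them no step. The sources used here do not say how a cattle annotation was applied to reads of reindeer. Antler and back were not compared, since counts were not used, and no sequence was read.

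Exons of all transcripts of a gene were joined. A base was coding if it was coding or stop codon in any transcript, otherwise 3′ UTR, otherwise 5′ UTR. Gene symbols were matched exactly or by pattern. Members, lists and alternatives were chosen with earlier results of these data known. Gene models are not replicates, so shares have 95% exact (Clopper-Pearson) intervals and no test was made.

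Named pairs were, among pairs with 2 symbols, the 10 longest, the 10 with most double coding bases and the 5 shortest, plus every pair of the immune, wound and growth factor lists, the longest pair of each list, the pairs known from human or mouse, the pairs with the 5 highest shares of exon bases and the 5 nearest pairs on either side of the rule. The 5 genes in most pairs were also to be named, but no gene was in more than 1. Some pairs that this rule names are not reported here. Other named genes were chosen after their values were seen. On a simulated annotation of 2000 genes, all 320 tail-to-tail pairs were recovered with their exact shared bases. Python 3.11.15, NumPy 2.4.6, pandas 2.3.3, SciPy 1.17.1 and matplotlib 3.10.9 were used.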

Additional observations from a re-analysis of the deposited data

How the results depend on the processing

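The number of pairs stayed within 1.5 times of 357 under all 7 alternatives tried for it, from 260 with 1 transcript per gene to 441 when overlapping gene spans were enough and no shared exon base was required. With at least 50 shared bases required, the median rose to 254 bases, the share of pairs touching coding bases to 68.9% and the share of genes in pairs fell to 2.64%. The share of genes was 2.38% with 1 transcript per gene, 3.89% of named genes when both genes had to carry a symbol, 4.025% for overlapping spans and 2.69% without the pairs that hold a 3′ UTR of exactly 1000 bases, an alternative chosen after seeing the data. The share of bases that were 3′ UTR in both genes was 53.1% with 1 transcript, 57.0% with both genes named, 54.65% when 3′ UTR took precedence over coding, 54.3% with stop codons as 3′ UTR and 49.6% without the pairs with a 3′ UTR of exactly 1000 bases. With windows of 100 and 500 bases, 66.7% and 77.6% of genes had a shared base near their end. Restricting to pairs whose genes are in no other pair changed nothing, since no gene was in more than 1. The comparison of antler with back was not run, since counts were not used here. No paired analysis was possible because no value belongs to a sample. Depth does not enter these values.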

Other observations

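In 7 tail-to-tail pairs both genes had the same symbol stem, that is, the symbol up to its first digit. ITIH4 and ITIH3, heavy chains of inter-alpha-trypsin inhibitor, shared 319 bases, of which 117 were coding in both. The nicotinic receptor subunits CHRNA5 and CHRNA3 shared 107 bases, 103 of them coding in CHRNA5 and 3′ UTR in CHRNA3. The guidance receptors ROBO3 and ROBO4 shared 103 bases and the transporters ABCC1 and ABCC6 shared 102 bases, all coding in both. LY6G6C with LY6G6D shared 28 bases of 3′ UTR, and CMTM3 with CMTM4 shared 8 bases. ND5 with ND6 was the other pair. LPO and MPO, both peroxidases, have different stems and are not in this count. Over all transcripts, pairs were also matched to each other by the first 3 letters of both symbols, which found 1 couple of pairs. NDE1, a dynein regulator, shared 684 bases with MYH11, smooth muscle myosin, on chromosome 25. NDEL1 shared 163 bases with MYH10 on chromosome 19. All 684 bases were coding in MYH11 and all 163 in MYH10. Only 1 of 5 NDEL1 transcripts reached MYH10. With the transcript of longest coding sequence alone, NDEL1 and MYH10 shared 0 bases, as did ROBO3 with ROBO4 and CMTM3 with CMTM4, while NDE1 and MYH11 shared 684.

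Further leukocyte and innate immune genes outside the lists, picked after their values were seen, were members. PTPRCAP, the CD45-associated protein, had 438 coding bases (71.9%) and its whole 3′ UTR of 251 bases under RPS6KB2. FERMT3, the kindlin of blood cells, shared 559 bases with TRPT1, with both stop codons touched. EIF2AK2, the double-stranded RNA-activated kinase PKR, shared 350 bases with GPATCH11, all 3′ UTR, which was 96.7% of its 3′ UTR. SLA2, an adaptor that dampens T cell receptor signals, shared 542 bases with RAB5IF, and HVCN1, the proton channel of phagocytes, shared 301 bases with TCTN1. TRIM25, a ubiquitin ligase of RIG-I signalling, shared 168 coding bases with the 3′ UTR of DGKE, which only 1 of the 4 DGKE transcripts reached. UNC13D, needed for cytotoxic granule release, shared 23 bases with UNK, TYROBP, a signalling adaptor of myeloid and NK cells, 17 bases with APLP1, and CEBPD, a myeloid transcription factor, 9 bases with SPIDR. With 1 transcript per gene, no base was shared by PTPRCAP with RPS6KB2, HVCN1 with TCTN1, TRIM25 with DGKE, UNC13D with UNK or TYROBP with APLP1. Some members outside blood cell lists are known antisense partners: NOS3, endothelial nitric oxide synthase, covered 486 coding bases of ATG9B with its 3′ UTR, and SELENOP, the selenium transport protein, shared 627 bases of 3′ UTR with CCDC152.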
